A study of Rattus norvegicus with 12 samples.

Results

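The comparison set tumor cells against normal cells in medium that held arginine. It used 6 of the 12 arrays of the series, all those whose labels give arginine-sufficient medium. WB-F344, called normal cells here, is a diploid hepatic epithelial cell line of Fischer-344 rat liver, taken from an adult male, and 3 of its cultures were hybridized (numbered 1, 3 and 5 in the sample titles). GP7TB, called tumor cells here, is a chemically transformed clonal derivative of the normal line that forms tumors in rats, and 3 of its cultures were hybridized (numbered 7, 9 and 11). All 6 cultures received Chee's Essential Medium with L-arginine HCl at 0.168 g/l and 5% fetal bovine serum for 18 hours before RNA was taken. The other 6 arrays, with the same lines in medium lacking arginine, were used only to look at the same line difference in separate cultures. Each condition is represented by 1 cell line, so a difference between tumor and normal cells is a difference between these lines, and the 3 cultures of a line measure the spread within that line and not among tumors or among livers.

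WB-F344 cells are liver epithelial cells that divide in culture and are used as a model of liver progenitor cells, which can take on hepatocyte or bile duct features under other conditions. Chemical transformation of such cells can change several layers of expression that are known from liver cancer, among them the cell cycle inhibitors and cyclins that set the entry into S phase, the matrix and contractile proteins that hold cells to their surroundings, the secreted proteases that cut that matrix, and growth factors of fetal liver such as insulin-like growth factor II. Expression arrays report the amount of each RNA relative to the others in a culture, and say nothing of protein or of DNA.

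Values are Microarray Suite 5.0 (MAS 5.0) signals on a linear scale, 1 array per culture, and differences are log2 tumor minus normal from limma. The ± after a difference is limma's standard error from 3 arrays per line, with the spread moderated across probe sets. The trimmed mean signal was 500.1 on every array and the median was 185 to 226. All 3 tumor arrays were scanned on 1 day and the normal arrays on 3 other days, and no chip lot held both lines, so cell line, scan day and chip lot cannot be told apart in any value below. The ratio of 3' to 5' Gapdh signal, a sign of RNA quality, was 1.13 ± 0.13 (SD, n = 3) in normal cells and 1.12 ± 0.03 in tumor cells (two-sided exact permutation test, p = 0.8), while for Actb the values were 1.13 ± 0.03 and 1.18 ± 0.15 (exact permutation p = 0.7), in a design where 3 arrays against 3 cannot give a p under 0.1. The run records name trypsin for tumor cultures 7 and 11 and no trypsin for culture 9, which is treated as a replicate here. For the normal cultures they state neither, so whether this handling differed between the lines is not known. Arrays of the same line correlated at 0.939 to 0.960 over log2 signals and those of different lines at 0.854 to 0.884, so the line separated all 6 arrays.

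The 2 lines differed in a large part of the genes they express. In such bulk RNA, fewer expressing cells and less RNA per cell cannot be told apart. Testing was limited to probe sets that, on 3 or more of the 6 arrays, ranked in the top 54% of signals. This threshold, 156 to 191 by array, stands in for a detection call. Of 9051 probe sets tested, limma called 1587 higher in tumor cells (17.5%) and 1679 lower (18.6%) at an adjusted p under 0.05. These shares are the background for every count below, where each gene is represented by its brightest tested probe set. On that footing 1238 of 6766 genes were higher (18.3%) and 1180 were lower (17.4%), and the median difference over all genes was 0.04 on the log2 scale. Changes were large among the called probe sets, 222 of them higher and 358 lower by a factor of 4 or more. In all 9 ratios of a tumor array to a normal array, 356 probe sets were raised 2-fold or more and 481 were reduced to that extent.

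Among genes whose signals lay above the threshold in all 6 arrays, the largest increase was that of Tagln2, which encodes the actin-binding protein transgelin-2. Its signals were 437, 471 and 306 in the normal and 7942, 8920 and 10406 in the tumor cultures, a difference of 4.50 ± 0.20 (adjusted p = 3.68e-07). Gda, which encodes guanine deaminase, an enzyme of purine breakdown, had signals of 272, 789 and 193 in the normal and 6927, 7126 and 7144 in the tumor cultures. Its tumor arrays lay close together while normal culture 3 stood above the other normal cultures, and the difference was 4.35 ± 0.42 (adjusted p = 4.57e-05). Hmga1, an architectural chromatin protein abundant in embryonic and malignant cells, had signals of 596, 765 and 885 in the normal and 4288, 4880 and 6021 in the tumor cultures and rose by 2.76 ± 0.20 (adjusted p = 8.52e-06). Fosl1, a subunit of the AP-1 transcription factor also known as FRA-1, had signals of 248, 520.1 and 351 in the normal and 1765, 2487 and 2993 in the tumor cultures, with a difference of 2.73 ± 0.29 (adjusted p = 8.59e-05). The 2 groups of arrays did not overlap for any of these genes, which the rule that chose them required. Plin2, which coats lipid droplets, differed by 2.82 ± 0.19, the fatty acid binding protein Fabp5 by 2.63 ± 0.36, the desaturase family member Fads3 by 3.06 ± 0.26 and the phospholipid remodelling enzyme Lpcat3 by 2.49 ± 0.25. The others of the 12 largest were Nrn1 (3.01 ± 0.22), Crip2 (2.96 ± 0.21), the sialic acid synthase gene Nans (2.58 ± 0.20) and Oaf (2.53 ± 0.22).

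The largest decrease among genes measured in both lines was that of Col1a1, the alpha 1 chain of type I collagen. It gave signals of 28460, 18813 and 17182 in the normal and 592, 519 and 340.3 in the tumor cultures, a difference of -5.47 ± 0.25 (adjusted p = 4.09e-07). Krt7, a keratin of bile duct and other simple epithelia, had signals of 6207, 6321 and 5008 in the normal and 309.6, 258 and 305 in the tumor cultures and a difference of -4.33 ± 0.18 (adjusted p = 1.88e-07). Edn1, the precursor of the vasoconstrictor peptide endothelin-1, gave 3328, 2983 and 2447 in the normal and 187, 170.3 and 177 in the tumor cultures, with its tumor signals at or just above the threshold, and differed by -4.02 ± 0.18 (adjusted p = 3.62e-07). The secreted proteases Adamts1 (-4.01 ± 0.23) and Prss23 (-3.51 ± 0.20) were also lower, as were the nonmuscle myosin heavy chain Myh10 (-3.37 ± 0.21), the kinase anchoring protein Akap12 (-3.33 ± 0.22), the matricellular protein Ccn3 (-3.32 ± 0.35) and the LIM domain protein Fhl1 (-3.26 ± 0.17). The rest of the 12 largest decreases were Lhfpl6 (-3.80 ± 0.25), Gask1b (-3.50 ± 0.30) and the prohormone-processing carboxypeptidase Cpe (-3.41 ± 0.35). All 24 genes of these groups had arrays of the 2 lines that did not overlap, as the rule that chose them required.

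**Figure D1:**
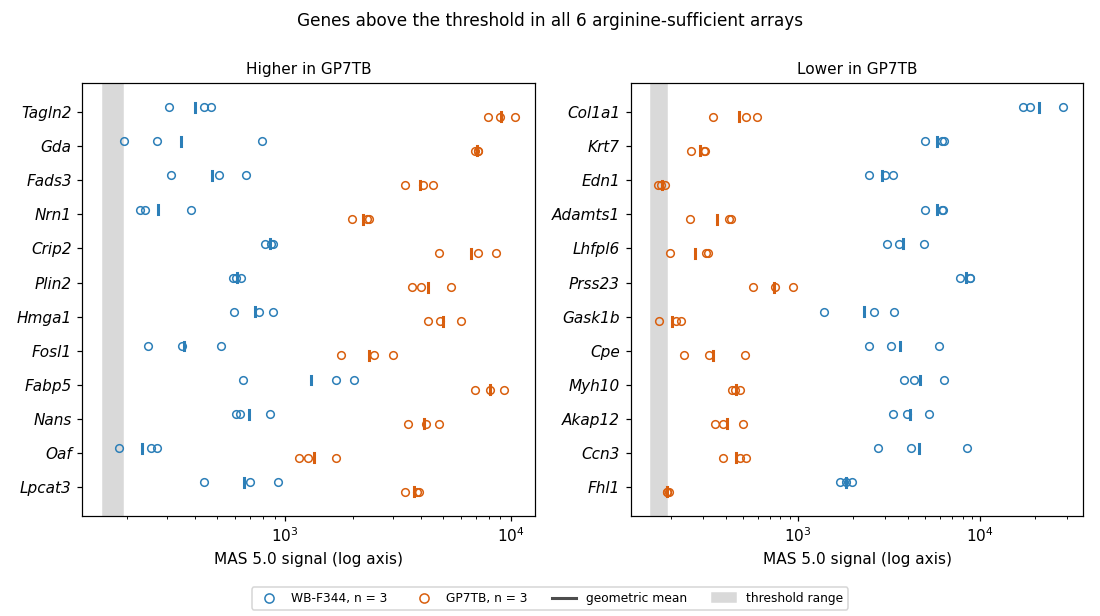
Signals of the 12 genes with the largest increase (left) and the 12 with the largest decrease (right) in tumor cells among genes above the threshold in all 6 arginine-sufficient arrays. Each circle is 1 array on a log axis of MAS 5.0 signal (blue for normal WB-F344, orange for tumor GP7TB, n = 3 each), short bars are geometric means and the grey band is the range of the arrays' thresholds; the tumor signals of Edn1 and Fhl1 sit at or near the band, while those of Tagln2 reach 7942 and above.

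For other genes one line had no signal above the threshold in any of its arrays, and only a lower bound of the fold can be given, the bright line's mean against the threshold. There were 325 such probe sets above the threshold only in tumor cells and 365 only in normal cells. They entered the test through the line where they are high, so their direction is set by that choice, and they make up 458 of the 6766 genes. No p-value is given with a bound, because the fit used signals under the threshold. Of the called genes given with a difference, some were above the threshold on 1 array of the dimmer line (Aldh3a1, Cdc25b and Col6a1 in normal cells, Des, Eln, Gbp2 and Lox in tumor cells) and some on 2 (Ccl2, Fzd1, Hk2, Krt14, Myc, Rpa2, Slc22a18 and Tnc in normal cells, Col4a1, Col4a2, Idi1, Psma3 and Sfrp1 in tumor cells). The gene with the largest bound in tumor cells was Gpr15lg, a ligand of the receptor GPR15 found in epithelia, with signals of 132, 77.4 and 139 in the normal and 12204, 14307 and 16578 in the tumor cultures, at least 78.5-fold higher. Sncg, or gamma-synuclein, a protein of neurons that is also found in several carcinomas, had signals of 109.7, 105 and 102 in the normal and 5788, 6874 and 7741 in the tumor cultures, at least 37.2-fold higher. The homeobox gene Rhox5 of the X chromosome, normally expressed in testis, epididymis and placenta, gave 28.2, 10.3 and 104 in the normal and 5355, 4859 and 4694 in the tumor cultures, at least 27.3-fold higher. Ocm, which encodes oncomodulin, a calcium-binding protein named for its presence in rat hepatomas, gave 4.4, 26.4 and 41.3 in the normal and 2563, 4785 and 5393 in the tumor cultures, at least 22.3-fold higher. The remaining genes were Tpm2 (at least 31.3-fold), the adhesive matrix protein Tgfbi (at least 24.3-fold), the hyaluronan receptor Cd44 (at least 23.2-fold), the cytochrome P450 Cyp3a9 (at least 20.9-fold), the protease inhibitor Serpine2 (at least 17-fold), Fxyd5 (at least 13.5-fold), the alarmin cytokine Il33 (at least 13.5-fold) and P-cadherin, Cdh3 (at least 11.5-fold).

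In the other direction, Col1a2, the partner chain of Col1a1 in type I collagen, had the largest bound. Its signals were 16777, 15031 and 12199 in the normal and 118, 102 and 106 in the tumor cultures, at least 87.3-fold lower in tumor cells. Agtr1a, the angiotensin II receptor, gave 8776, 7647 and 9553 in the normal and 46.4, 55.7 and 58.6 in the tumor cultures, at least 51.7-fold lower. Igf2, the fetal growth factor, gave 4317, 4725 and 4715 in the normal and 144, 68.8 and 65.6 in the tumor cultures, at least 27.5-fold lower, and Grb10, an adaptor that restrains insulin and IGF receptor signalling, gave 3813, 4129 and 3699 in the normal and 9.5, 11.2 and 11.4 in the tumor cultures, at least 23.3-fold lower. Gpc3, a heparan sulfate proteoglycan of fetal liver that often returns in human liver cancer, was here a gene of the normal line, with signals of 4349, 2247 and 2258 in the normal and 6.6, 9.0 and 5.9 in the tumor cultures, at least 16.8-fold lower. Ccnd2, cyclin D2, had signals of 4328, 2517 and 4017 in the normal cultures and at most 142 in the tumor cultures, at least 21.1-fold lower. Igfbp2 varied widely within the normal line, with signals of 12194, 781 and 1410 in the normal and 46, 65.2 and 53.7 in the tumor cultures, and its bound was at least 14.3-fold. The others were the smooth muscle protein Tagln (at least 22.1-fold), the sphingomyelinase Smpd3 (at least 13.3-fold), tissue plasminogen activator, Plat (at least 12.4-fold), the B subunit of lactate dehydrogenase, Ldhb (at least 11.8-fold), and the coagulation inhibitor Tfpi (at least 10.3-fold).

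**Figure D2:**
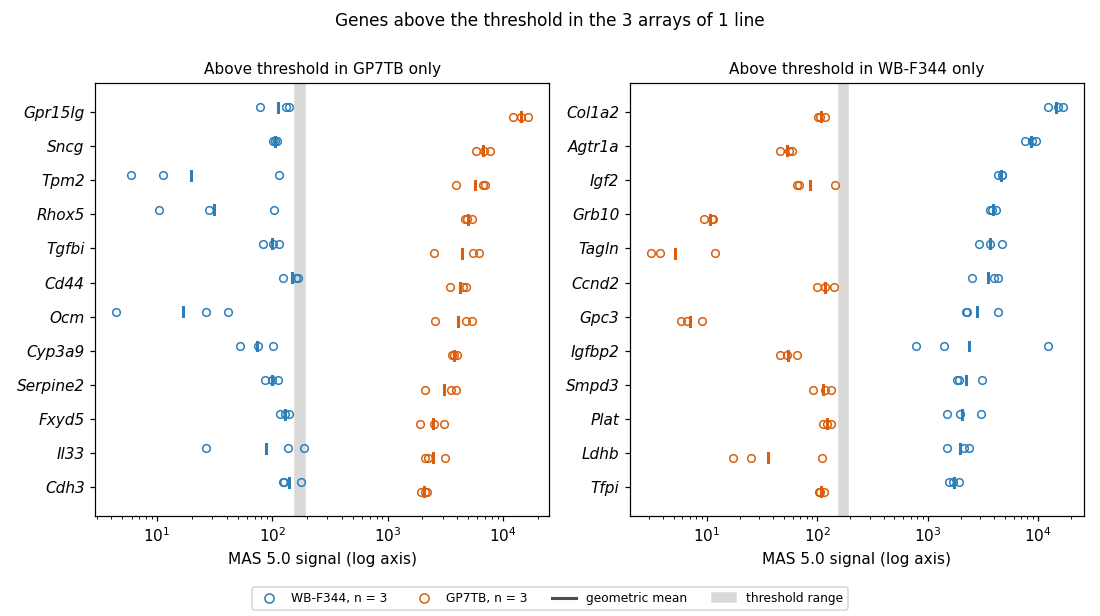
Signals of 12 genes above the threshold only in tumor cells (left) and 12 only in normal cells (right), each in order of its lower bound of the fold. Circles are single arrays on a log axis of MAS 5.0 signal, blue for normal WB-F344 and orange for tumor GP7TB (n = 3 each), and the grey band is the range of the arrays' thresholds; signals left of the band are not ordered reliably, and the bounds run from 10.3-fold for Tfpi to 87.3-fold for Col1a2.

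Most mesenchymal and contractile genes tested were lower in tumor cells. These lists share members, Tagln among them, so their counts are not separate results. Of 13 mesenchymal markers tested, 11 were lower, none was higher, and the median difference was -1.83 (-1.31 with low signals raised to the threshold). Of the 13, 3 passed the filter through the normal line only (Col1a2, Tagln and Cdh2). Besides type I collagen and Tagln, the lower markers included Lox, the enzyme that crosslinks collagen. Lox had signals of 9140, 7279 and 5962 in the normal and 392, 154 and 127 in the tumor cultures, a difference of -5.22 ± 0.37 (adjusted p = 7.21e-06). Lower too were N-cadherin (Cdh2, at least 2.49-fold), smooth muscle actin (Acta2, -2.01 ± 0.21), Sparc (-1.83 ± 0.21) and fibronectin (Fn1, -1.15 ± 0.15), with smaller decreases of Col3a1, Zeb1 and Vim. Snai1, a repressor of epithelial genes, had 0.27 ± 0.18 and S100a4 0.61 ± 0.38, and neither passed the test. Of 15 contractile and YAP-responsive genes, 11 were lower and 1 was higher, with a median of -1.21, and 3 (Tagln, Ankrd1 and Tpm2) passed the filter through 1 line only. The YAP targets Ankrd1 (at least 5.61-fold lower), Ccn1 (-2.12 ± 0.41, adjusted p = 0.00328), Amotl2 (-1.69 ± 0.16, adjusted p = 4.24e-05) and Ccn2 (-1.18 ± 0.13, adjusted p = 0.00011) were among those that fell. The tropomyosin genes went opposite ways. Tpm1 had signals of 3427, 4569 and 3955 in the normal and 1220, 1398 and 1062 in the tumor cultures and a difference of -1.70 ± 0.18 (adjusted p = 8.54e-05), whereas Tpm2 had 11.3, 5.9 and 115 in the normal and 3946, 6702 and 6955 in the tumor cultures, at least 31.3-fold higher. Counts of 10 to 11 mesenchymal and 10 to 11 contractile genes lower were obtained when any 1 of the 6 arrays was left out.

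Matrix genes moved both ways. This list shares members with the mesenchymal markers, Col1a2 among them. Of 33 matrix genes tested, 18 were lower, 8 were higher and the median was -1.09, and 7 passed the filter through 1 line only. Among the lower were the basement membrane chains Col4a1 (-4.52 ± 0.22, adjusted p = 6.87e-07) and Col4a2 (-4.25 ± 0.37, adjusted p = 2.35e-05), the laminin chains Lamb1, Lamc1 and Lama5 (-1.09 to -1.57), elastin (Eln, -2.75 ± 0.37, adjusted p = 0.000376), fibulin 2 (Fbln2, -3.22 ± 0.28, adjusted p = 2.53e-05) and Mgp, an inhibitor of calcification. Mgp had signals of 2777, 245 and 6812 in the normal and 15.8, 14 and 51.6 in the tumor cultures, so that normal culture 3 was far below the other normal cultures and still above all tumor cultures. Higher were the 3 chains of type VI collagen, Col6a1 (1.98 ± 0.30, adjusted p = 0.000812), Col6a2 (at least 2.87-fold) and Col6a3 (at least 2.48-fold). So were Col8a1 (at least 11.2-fold), the laminin chain Lama3 (at least 3.09-fold), the large proteoglycan versican and tenascin C. Versican (Vcan) had signals of 50.5, 36.2 and 42.1 in the normal and 2026, 879.6 and 566 in the tumor cultures, at least 5.53-fold higher. Tenascin C (Tnc), a matrix protein of wounds and tumor stroma, had signals of 89.6, 194 and 281 in the normal and 5680, 5064 and 4944 in the tumor cultures and a difference of 4.94 ± 0.35 (adjusted p = 6.51e-06).

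**Figure D3:**
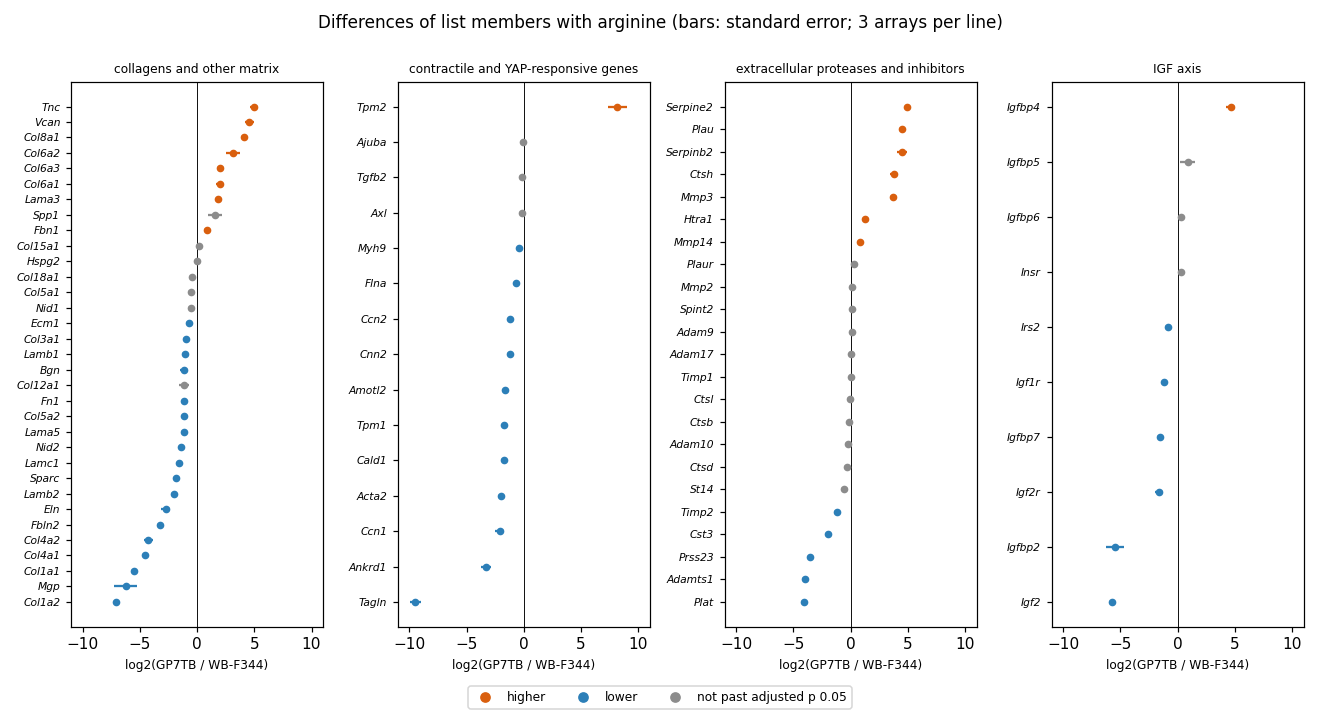
Log2 difference between tumor and normal cells with arginine for each tested gene of 4 lists (matrix, contractile and YAP-responsive genes, extracellular proteases and their inhibitors, and the IGF axis). Points are limma estimates with 1 standard error (3 arrays per line), orange for genes higher, blue for genes lower and grey for genes that did not pass an adjusted p of 0.05; Tpm2 (8.17) and Igfbp4 (4.65) are the members called higher in the contractile list and the IGF axis, and estimates for genes dark in one line are larger than the bounds given in the text.

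Of 10 keratin and junction genes tested, 6 were lower and 1 was higher, and 3 (Ocln, Lsr and Pkp2) passed the filter through the normal line only. Occludin (Ocln), a protein of tight junctions, had signals of 1411, 1179 and 1083 in the normal and 76.6, 54.9 and 58.6 in the tumor cultures, at least 7.3-fold lower. The tricellular junction receptor Lsr was at least 5.44-fold lower and the desmosomal plakophilin Pkp2 at least 1.93-fold lower. The basal keratin Krt14 went the other way, with signals of 253, 142 and 384 in the normal and 3035, 8436 and 8056 in the tumor cultures and a difference of 4.62 ± 0.43 (adjusted p = 3.93e-05). Krt8, the keratin of simple epithelia that hepatocytes express, had 0.56 ± 0.26 and did not pass. Among 19 integrins and other adhesion receptors, 6 were higher and 6 were lower, 6 of the 19 having passed the filter through 1 line only. Cd44 and Cdh3 were above, and Nectin2 (at least 4.53-fold), Itga1 (at least 4.26-fold) and Alcam (-2.02 ± 0.29, adjusted p = 0.00061) below.

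Of 23 proteases and inhibitors tested, 7 were higher and 5 were lower. The filter set the direction of 6 of these calls (Plau, Serpine2, Serpinb2, Mmp3, Ctsh and Plat), which are given as bounds. Urokinase (Plau), which activates plasminogen at the cell surface, had signals of 79.7, 51.1 and 46.6 in the normal and 1198, 1232 and 1422 in the tumor cultures, at least 7.06-fold higher, while Plat, the other plasminogen activator, was at least 12.4-fold lower. Stromelysin 1 (Mmp3), which cleaves many matrix proteins, had signals of 36.5, 57.5 and 46.1 in the normal and 805, 484 and 561 in the tumor cultures, at least 3.32-fold higher. Serpinb2, an inhibitor of urokinase, had signals of 35.5, 15.9 and 40.1 in the normal and 1112, 456 and 492 in the tumor cultures, at least 3.47-fold higher, and cathepsin H (Ctsh) was at least 8.72-fold higher. The urokinase receptor Plaur had 0.29 ± 0.22 and Timp1, the tissue inhibitor of metalloproteinases, 0.03 ± 0.19, and neither passed the test. Timp2 (-1.20 ± 0.23, adjusted p = 0.00289) and cystatin C (Cst3, -1.97 ± 0.18, adjusted p = 3.68e-05) were lower.

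Promoter sequences are shown for 3 called members of the protease and contractile lists that hold a motif of AP-1, the factor Fosl1 belongs to, or of serum response factor. Each is the RefSeq window from 250 bases before to 50 after the start of the gene on GRCr8, 5' to 3' on the gene's strand, and capitals mark a match on either strand to a loose form of the AP-1 motif, TGANTCA, in Mmp3 (chr8:12925031-12925330, plus strand) and Serpinb2 (chr13:24055771-24056070, plus strand), and to a CArG box, the site of serum response factor, in the contractile gene Cnn2 (chr7:10370263-10370562, minus strand). N is any base here and in the counts below, G in the Mmp3 match and T in that of Serpinb2.
Mmp3: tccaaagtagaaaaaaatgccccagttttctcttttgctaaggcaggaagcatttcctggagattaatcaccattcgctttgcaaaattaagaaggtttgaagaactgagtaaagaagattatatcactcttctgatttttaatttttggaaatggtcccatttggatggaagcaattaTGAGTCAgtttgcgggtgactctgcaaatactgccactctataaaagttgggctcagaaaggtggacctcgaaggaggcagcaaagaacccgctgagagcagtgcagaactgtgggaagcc
Serpinb2: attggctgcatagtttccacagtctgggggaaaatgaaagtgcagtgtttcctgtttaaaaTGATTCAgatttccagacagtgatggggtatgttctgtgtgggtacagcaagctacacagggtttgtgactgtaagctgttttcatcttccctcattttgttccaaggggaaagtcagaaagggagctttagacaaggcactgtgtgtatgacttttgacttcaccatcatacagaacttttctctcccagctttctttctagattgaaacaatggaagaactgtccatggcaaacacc
Cnn2: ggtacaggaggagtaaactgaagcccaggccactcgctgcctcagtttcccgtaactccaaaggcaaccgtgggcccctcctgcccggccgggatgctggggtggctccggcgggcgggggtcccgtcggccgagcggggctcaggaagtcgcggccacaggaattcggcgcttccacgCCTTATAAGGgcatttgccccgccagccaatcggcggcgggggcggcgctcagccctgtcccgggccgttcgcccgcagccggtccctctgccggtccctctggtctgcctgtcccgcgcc
The AP-1 motif occurs in 3 of the 16 tested protease and inhibitor genes that have a window (Mmp3, Serpinb2 and Plaur), in 281 of 5743 windows of all genes tested (4.89%) and in 2012 of 27457 windows of all genes (7.33%). A CArG box occurs in 1 of 13 contractile genes with a window and in 451 of the 27457 (1.64%). Both AP-1 genes with higher signals in tumor cells and Plaur, which did not pass, hold the motif, and a match is only a run of letters in these windows. The Cnn2 match also contains the letters TATAA.

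Of 10 IGF axis genes tested, 6 were lower, 1 was higher and the median was -1.02. Of these, 3 (Igf2, Igfbp2 and Igfbp4) passed the filter through 1 line only, so their direction was set by it. With Igf2 and Igfbp2 these were the receptors Igf2r (-1.60 ± 0.35, adjusted p = 0.00583) and Igf1r (-1.18 ± 0.17, adjusted p = 0.000529), the binding protein Igfbp7 (-1.55 ± 0.27, adjusted p = 0.00184) and the substrate Irs2 (-0.85 ± 0.24, adjusted p = 0.0194). Irs2 did not pass without normal culture 3, tumor culture 7 or tumor culture 11, with an adjusted p of up to 0.0692. Igfbp4, which binds and holds IGFs, was the higher one, with signals of 99.2, 63.2 and 87.9 in the normal and 1200, 3824 and 1888 in the tumor cultures, at least 11.3-fold higher. Igfbp5 (0.88 ± 0.67), Igfbp6 (0.32 ± 0.24) and the insulin receptor Insr (0.28 ± 0.25) did not pass. Of 11 imprinted genes tested, which are expressed from 1 parental copy, 7 were lower and 2 were higher, with a median of -1.30. The filter set the direction of 4 of them (Igf2, Plagl1, Grb10 and Snrpn), and with low signals raised to the threshold the median was -0.82. Plagl1, a zinc finger protein that slows growth, gave 2360, 302 and 574 in the normal and 15.1, 4.7 and 6.6 in the tumor cultures, at least 4.46-fold lower, with normal culture 1 well above the other normal cultures. Sgce (1.48 ± 0.17, adjusted p = 0.000151) and Slc22a18 (1.61 ± 0.35, adjusted p = 0.00553) were higher, and Meg3 had 0.18 ± 0.23 and Mest 0.75 ± 0.35, which did not pass with all 6 arrays.

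Among regulators of the cell cycle, the inhibitors differed from one another. Cdkn2a, whose transcripts encode inhibitors of CDK4 and CDK6 and of MDM2, had signals of 2053, 951 and 1344 in the normal and 29, 4.5 and 9.2 in the tumor cultures. All tumor signals were near the bottom of the array, at least 8.28-fold lower. Among neighbouring genes of chromosome 5, Klhl9, Focad, Plaa and Fggy had differences of 0.28, 0.21, 0.01 and 0.60 and did not pass, while Jun was called higher, at 1.10 ± 0.22 (adjusted p = 0.00347). Cdkn2b, the adjacent gene, had too few signals above the threshold to be tested, with 448, 157 and 224 in the normal and 42.6, 69.3 and 48.3 in the tumor cultures, and no difference is given for it. It was named after its values were seen. Cdkn1b, the inhibitor p27, had a lower signal, with a difference of -0.85 ± 0.21 (adjusted p = 0.00957). Cdkn1a, the inhibitor p21, had signals of 2669, 2257 and 2266 in the normal and 2000, 2730 and 2567 in the tumor cultures and did not differ beyond the spread (0.01 ± 0.18, adjusted p = 0.962). The study's Northern blots, by contrast, did not detect p21 RNA in tumor cells, and the reason for this conflict was not tested.

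The D cyclins differed in direction. Ccnd1 had signals of 2310, 1465 and 1215 in the normal and 2994, 3683 and 3607 in the tumor cultures, with a difference of 1.09 ± 0.23 (adjusted p = 0.00531), whereas Ccnd2 was lower and Ccnd3 had 0.24 ± 0.22. Cdc25b, a phosphatase that activates mitotic CDK1, had 132, 239.8 and 76 in the normal and 668, 803 and 674 in the tumor cultures, a difference of 2.41 ± 0.36 (adjusted p = 0.000666). The MYC family also divided. Mycn had signals of 1222, 1388 and 1111 in the normal and 14.9, 11.8 and 9.1 in the tumor cultures, at least 7.41-fold lower, and the MAX partner Mxd4, which opposes MYC, was at least 2.73-fold lower. Myc itself had 136, 370.5 and 203 in the normal and 514, 474 and 495 in the tumor cultures, a difference of 1.19 ± 0.32 (adjusted p = 0.0163), and its adjusted p was 0.0522 when normal culture 5 was left out. Gadd45a, a growth arrest gene that the study blotted, had signals of 355, 177 and 256 in the normal and 1178, 927 and 557 in the tumor cultures and was higher by 1.75 ± 0.32 (adjusted p = 0.00233).

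Genes of DNA replication were mostly higher or did not pass. Of 27 tested, 14 were higher (51.9%, beside 18.3% of all genes) and 1 was lower, and the median was 0.71 against 0.04 over all genes. The replication helicase subunit Mcm4 had signals of 574, 866 and 695 in the normal and 1546, 1697 and 1562 in the tumor cultures (1.19 ± 0.19, adjusted p = 0.00109). The single strand binding subunit Rpa2 had 271, 261 and 170.5 in the normal and 615, 513 and 647 in the tumor cultures (1.36 ± 0.23, adjusted p = 0.00139). For the clamp loader subunit Rfc2 they were 997, 1018 and 891 in the normal and 1894, 2325 and 2589 in the tumor cultures (1.22 ± 0.18, adjusted p = 0.000578). The increases were modest in size, at most 1.36 on the log2 scale. The exception was Tyms, thymidylate synthase, with 449.7, 625 and 614 in the normal and 295, 249.9 and 254 in the tumor cultures and a difference of -1.07 ± 0.20 (adjusted p = 0.00277). The count of higher genes was 9 without normal culture 1, 8 without normal culture 5, 9 without tumor culture 9, 7 without tumor culture 11, 19 without normal culture 3 and 15 without tumor culture 7. Of 22 mitosis genes, 7 were higher and none was lower, but this count fell to 0 without tumor culture 9 and to 3 without normal culture 5 or tumor culture 11, and the median of 0.53 was -0.09 in the arginine-deficient arrays.

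Among glycolysis genes increases outnumbered decreases. Of 21 tested, 10 were higher and 3 were lower, with a median of 0.48. The lactate exporter Slc16a1 had signals of 558, 559 and 684 in the normal and 2409, 2220 and 2641 in the tumor cultures (2.02 ± 0.17, adjusted p = 2.16e-05). Enolase 1 (Eno1) had 3580, 5588 and 5150 in the normal and 12202, 13055 and 18027 in the tumor cultures (1.60 ± 0.21, adjusted p = 0.000314). The glucose transporter Slc2a1 gave 501, 743 and 680.3 in the normal and 1749, 1494 and 1703 in the tumor cultures (1.38 ± 0.19, adjusted p = 0.000497). Hexokinase 2 (Hk2), which traps glucose in the cell, was higher by 1.39 ± 0.24 (adjusted p = 0.00161). The groups of arrays did not overlap for any of them. The same held for 2282 of the 9051 probe sets tested in that direction, and for 2226 in the other. Ldha, the A subunit of lactate dehydrogenase, had 0.24 ± 0.19 and did not pass, while Ldhb, the B subunit, gave 1513, 2348 and 2117 in the normal and 17.3, 24.9 and 109.5 in the tumor cultures, at least 11.8-fold lower. Of 58 respiratory chain and ATP synthase genes, 4 were higher and 9 were lower (6.9% and 15.5%). Both shares were below those of all genes, 18.3% and 17.4%. The counts of this list were 2 and 4 without normal culture 5, 2 and 4 without tumor culture 9, and 2 and 12 without tumor culture 11. The count of higher glycolysis genes was 7 to 10 when 1 array was left out.

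Lipid genes were described by 2 lists. Of 15 genes of the mevalonate and cholesterol pathway, 6 were lower and none was higher, with a median of -0.63. Idi1, the isomerase that makes the isoprenoid units usable, had signals of 1243, 526 and 754 in the normal and 252, 195 and 116 in the tumor cultures (-2.15 ± 0.35, adjusted p = 0.00128). Lanosterol synthase (Lss) gave 1515, 529 and 871 in the normal and 235, 206 and 172 in the tumor cultures (-2.13 ± 0.34, adjusted p = 0.000977). Squalene epoxidase (Sqle), an oxygen-requiring step of the pathway, differed by -1.87 ± 0.27 (adjusted p = 0.000642). Insig1, the sterol-sensing retention protein of the endoplasmic reticulum, had 3664, 1204 and 2108 in the normal and 535, 488 and 389 in the tumor cultures (-2.17 ± 0.34, adjusted p = 0.00101). For each of these genes normal culture 3 was the lowest normal array, and still above all tumor arrays. Fdps, which makes farnesyl diphosphate, was lower, with a difference of -1.39 ± 0.36 (adjusted p = 0.0138), and did not pass when normal culture 1 or 5 was left out (adjusted p up to 0.0535). In the arginine-deficient arrays Fdps had a line difference of -0.01 ± 0.30 (limma adjusted p = 0.985), while that of Insig1 was -2.10 ± 0.36. The count of lower genes of the pathway was 3 without normal culture 1, 3 without normal culture 5 and 11 without normal culture 3, and the median was 0.34 in the arginine-deficient arrays. Of 26 genes of fatty acid synthesis, oxidation and storage, 5 were higher and 3 were lower, near the background shares, with a median of 0.03, and 6 were lower without normal culture 3. The nuclear receptor Pparg, a regulator of lipid storage, gave 69.6, 20.7 and 65.8 in the normal and 379, 527 and 594 in the tumor cultures, at least 2.71-fold higher, and the desaturase Scd2 was at least 4.15-fold higher. The elongase Elovl6 was at least 2.05-fold lower and Ech1, an enzyme of fatty acid oxidation, differed by -1.20 ± 0.20 (adjusted p = 0.00153).

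Genes of arginine and polyamine metabolism differed by member. Ddah1, which breaks down the nitric oxide synthase inhibitor dimethylarginine, had signals of 3877, 3029 and 2374 in the normal and 518, 836 and 648 in the tumor cultures, a difference of -2.21 ± 0.24 (adjusted p = 9.13e-05), and its relative Ddah2 gave 291, 175 and 359 in the normal and 8.8, 8.4 and 7.8 in the tumor cultures, at least 1.58-fold lower. Sms, spermine synthase, had signals of 95.5, 152 and 153 in the normal and 1369, 1148 and 1016 in the tumor cultures, at least 6.44-fold higher, and Srm, spermidine synthase, 790.5, 1102 and 606 in the normal and 3302, 3474 and 3761 in the tumor cultures, a difference of 2.12 ± 0.22 (adjusted p = 7.85e-05). Odc1, ornithine decarboxylase, which starts the pathway, had 0.19 ± 0.20 and did not pass. Azin1, which protects that enzyme from breakdown, differed by 1.54 ± 0.25 (adjusted p = 0.00103) on 1 probe set and by 0.22 ± 0.19 (adjusted p = 0.408) on the other. Of 12 urea cycle and arginine genes, 3 were higher and 3 were lower (25% each, beside 18.3% and 17.4% of all genes). Only 1 was higher without normal culture 1, tumor culture 9 or tumor culture 11. Of the 12, 2 passed the filter through 1 line only, Ddah2 among them. Of 11 polyamine genes, 4 were higher and 1 was lower.

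Amino acid transporters moved both ways, with 3 higher and 4 lower of 14 (21.4% and 28.6%, beside 18.3% and 17.4% of all genes). Of the 14, 3 passed the filter through 1 line only, Slc7a8 and Slc38a1 among them, so their direction was set by it. The neutral amino acid carrier Slc7a8 had signals of 289, 384 and 675 in the normal and 31.5, 44.4 and 17.2 in the tumor cultures, at least 2.53-fold lower. Slc7a1, the cationic amino acid transporter that carries arginine, had 609.5, 1275 and 758 in the normal and 1733, 2038 and 1772 in the tumor cultures, a difference of 1.14 ± 0.26 (adjusted p = 0.0068), and its 3 probe sets were all called higher. Slc7a5, which encodes the LAT1 carrier, had signals of 822, 1751 and 618 in the normal and 1296, 1306 and 1858 in the tumor cultures, which overlapped, and its difference of 0.61 ± 0.34 did not pass (adjusted p = 0.193), although it did without normal culture 3. Its partner chain Slc3a2 had 0.15 ± 0.18 (adjusted p = 0.557). The taurine transporter Slc6a6 was higher (2.18 ± 0.30, adjusted p = 0.000409) and the glutamine carrier Slc38a1 lower (at least 3.45-fold). Asns, asparagine synthetase, had 807, 2037 and 969.6 in the normal and 2522, 3768 and 4240 in the tumor cultures, a difference of 1.55 ± 0.33 (adjusted p = 0.00506), while Phgdh, the first enzyme of serine synthesis, was lower, at -1.70 ± 0.25 (adjusted p = 0.000648).

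Detoxification genes were mixed. Of 25 NRF2 targets and glutathione genes, 8 were higher and 6 were lower, with 5 higher without normal culture 5 or tumor culture 9. The pentose phosphate enzyme Pgd (1.89 ± 0.18, adjusted p = 3.93e-05) and glutathione reductase, Gsr (1.53 ± 0.31, adjusted p = 0.00409), were higher, and the glutathione transferase Gstm2 had signals of 1828, 1454 and 1331 in the normal and 148, 113 and 114 in the tumor cultures, at least 9.14-fold lower. Gstp1, the placental glutathione transferase used as a marker of rat liver tumors, was abundant in both lines, with signals of 14948, 15526 and 14522 in the normal and 13984, 13946 and 18606 in the tumor cultures, and did not differ beyond the spread (0.04 ± 0.15, adjusted p = 0.87). Aldh3a1, another rat liver tumor marker, had 78.8, 48.7 and 2170 in the normal and 3298, 7264 and 7520 in the tumor cultures. One normal culture, number 5, thus approached the tumor range, and the difference of 4.80 ± 1.13 carried a large error (adjusted p = 0.00854).

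Inflammatory and immune genes differed by member. Of 17 cytokine, chemokine and prostaglandin genes tested, 7 were higher and 3 were lower, and the counts were again 7 and 3 with any 1 array left out. Of these calls, 3 (Il33, Cxcl3 and Cxcl12) passed the filter through 1 line only. Cxcl12, a chemokine of stromal cells, had signals of 2542, 831 and 1778 in the normal and 91.7, 60.9 and 81.6 in the tumor cultures, at least 9.33-fold lower. The monocyte chemokine Ccl2 had 117, 336 and 216 in the normal and 1352, 941 and 842 in the tumor cultures (2.32 ± 0.35, adjusted p = 0.000741), the neutrophil chemokine Cxcl3 was at least 3.02-fold higher and Csf1 differed by 1.78 ± 0.30 (adjusted p = 0.00153). Among 16 interferon response genes, 7 were lower and 4 were higher, with 4 lower without normal culture 1, normal culture 5 or tumor culture 9. The immunoproteasome subunit Psmb8 had signals of 163, 150.2 and 134 in the normal and 995, 837 and 978 in the tumor cultures, at least 5.15-fold higher, and Usp18, a brake on interferon signalling, was at least 4.5-fold higher, while Gbp2 (-1.66 ± 0.36, adjusted p = 0.00549) and Ifitm3 (-1.03 ± 0.17, adjusted p = 0.00125) were lower. Bid, a BCL2 family protein (1.97 ± 0.20, adjusted p = 6.15e-05), and Casp1, the protease that matures interleukins (at least 2.64-fold), were higher, and Birc2, an inhibitor of apoptosis (-1.11 ± 0.22, adjusted p = 0.00347), was lower.

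**Figure D4:**
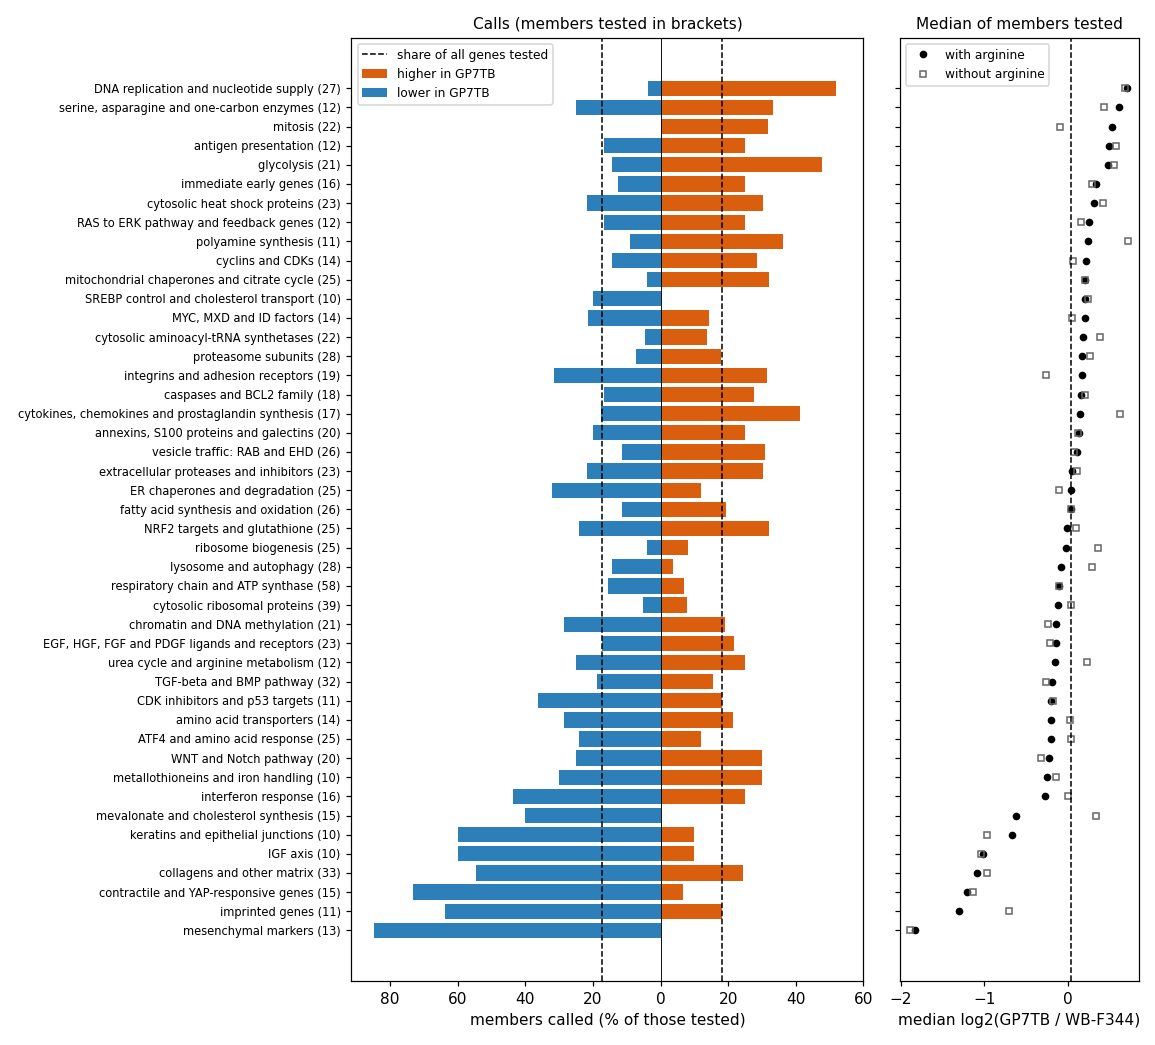
Gene lists with 10 or more tested members other than the rat liver tumor markers, ordered by the median difference with arginine. Left, the share of members called higher (orange, to the right) and lower (blue, to the left) in tumor cells by limma, with dashed lines at the shares of all 6766 genes (18.3% and 17.4%); right, the median log2 difference of the members with arginine (filled circles) and without it (open squares), with the dashed line at 0.04, where mesenchymal markers sit lowest at -1.83 and DNA replication highest at 0.71.

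In several housekeeping groups both shares were below the background with all 6 arrays. Of 39 cytosolic ribosomal protein genes, 3 were higher and 2 were lower, of 25 ribosome biogenesis genes, 2 and 1, of 28 lysosome and autophagy genes, 1 and 4, and of 22 aminoacyl-tRNA synthetases and their cofactors, 3 and 1. Proteasome subunits had 5 higher and 2 lower of 28, among them Psma3 (-1.51 ± 0.25, adjusted p = 0.00143) and Psma2 (-1.16 ± 0.14, adjusted p = 0.000218) below. These small counts moved by over 1.5 times when single arrays were left out, as with 7 lower ribosomal protein genes without tumor culture 11, 7 higher ribosome biogenesis genes without normal culture 3 2 higher proteasome genes without normal culture 5, tumor culture 9 or tumor culture 11 (3 without normal culture 1 or tumor culture 7), and 2 lower lysosome genes without normal culture 1, normal culture 5 or tumor culture 11. No ribosomal protein gene was lower without normal culture 1 or tumor culture 9. Medians of these lists lay between -0.12 and 0.18.

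Most RNAs listed as products of mature hepatocytes had signals under the threshold in both lines. Of 27 hepatocyte products on the array, 21 were under the threshold in every array, and Apoc3 alone was above it in all 3 normal arrays, with signals of 318, 231 and 209 in the normal and 97.2, 126 and 109.7 in the tumor cultures. Albumin (Alb) gave 179, 130.5 and 90.4 in the normal and 151, 142 and 176 in the tumor cultures, above the threshold only in tumor culture 11. Summed over the list, signals were 1906 to 2451 in normal cells and 1981 to 2135 in tumor cells. The cardiac and liver factor Gata4 (-1.28 ± 0.21, adjusted p = 0.00118) and Gata6 (-1.48 ± 0.23, adjusted p = 0.000785) were lower in tumor cells and Tcf7l2, a nuclear effector of WNT signalling, was higher (1.11 ± 0.23, adjusted p = 0.00421). These were the calls among 7 hepatic transcription factors tested, where 3 were higher and 3 were lower without normal culture 1. Of 6 biliary and progenitor markers tested, Anxa4 (1.25 ± 0.26, adjusted p = 0.00435) and the water channel Aqp1 (0.98 ± 0.19, adjusted p = 0.00328) were higher and Krt7 was lower. Krt19 and Epcam were under the threshold in all 6 arrays.

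Markers of other cell types were few. Of 8 endothelial markers on the array, Eng and Lyve1 were above the threshold in all 3 tumor arrays and Flt1 in all 3 normal arrays. Lyve1 had signals of 6.3, 5.6 and 24.2 in the normal and 694, 491 and 478 in the tumor cultures (at least 3.01-fold higher) and Eng 33.1, 21 and 25 in the normal and 377, 325 and 554 in the tumor cultures (at least 2.25-fold higher). The summed signal of the list was 511 to 682 in normal and 1213 to 1496 in tumor cells, while Pecam1, Vwf and Kdr, which define endothelial cells, were under the threshold everywhere. Among 12 macrophage and leukocyte markers, the sum was 1593 to 1778 in normal and 1692 to 2120 in tumor cells, with Ptprc and Cd68 under the threshold in all 6 arrays and Cd14 above it in all 6. Cd4 was close to the threshold in both lines, with signals of 163, 212 and 189 in the normal and 186, 220.2 and 226 in the tumor cultures, and did not pass (0.17 ± 0.23). Of 3 red blood cell markers, whose sum was 241 to 406 in normal and 133 to 420.4 in tumor cells, Slc4a1 gave 265, 173 and 210.5 in the normal and 117, 78.8 and 171 in the tumor cultures and did not pass (-0.87 ± 0.33). Stellate cell markers (9 on the array) summed to 1275 to 1369 and 896 to 1275, with Des lower in tumor cells (-1.20 ± 0.28, adjusted p = 0.00806). Their part in the differences above was not tested.

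Genes that differed in the same direction lay together on some chromosomes. Genes were placed by their order on the rat chromosomes of the GRCr8 annotation, 6747 of the 6766, since the array itself gives no position. Chromosome 4 had a median difference of 0.46 over 388 genes, chromosome 12 of 0.33 over 252, chromosome 5 of 0.31 over 421 and chromosome 17 of -0.36 over 175, against 0.04 for all genes. In the 9 ratios of a tumor to a normal array, the median of chromosome 4 ran from 0.42 to 0.52. It was at most 0.05 between any pair of normal arrays and 0.095 between any pair of tumor arrays. For chromosome 17 the 9 ratios ran from -0.57 to -0.30, and pairs of normal arrays differed by at most 0.08. On chromosome 4, 42.5% of genes were called higher, against the 18.3% of all genes. The shifts of chromosomes 4 and 17 were larger than these differences between replicates, and they are given as a description with no test across genes.

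Within chromosomes the shift varied by stretch. In windows of 50 neighbouring genes, 27 of 240 had a median of 0.4 or more and 7 had one of -0.4 or less, a limit chosen after the values were seen, and all 34 had the same sign in the arginine-deficient arrays, which were not used to find them. A stretch of 175 genes on chromosome 1, from Deaf1 to Gda, had a median of 0.58, with 86 genes called higher and 6 lower. On chromosome 4, 125 genes from Ube3c to Cul1 had 0.69, with 68 higher and 10 lower. Chromosome 5 had a stretch at each end, 125 genes from Eloc to Cdk5rap2 at 0.53 and 150 genes from Phc2 to Hes5 at 0.64 and windows from -0.10 to 0.24 between them. The longer of the lower stretches were 75 genes of chromosome 17 from Wrnip1 to Nid1 at -0.82, with 45 called lower and 2 higher, and 75 genes of chromosome 7 from Hdac10 to Copz1 at -0.61, with 39 lower and 2 higher. Single windows on chromosome 3 (Emc7 to Gabpb1, -0.44), chromosome 20 (Gcc2 to Atg5, -0.51) and X (Drp2 to F8a1, -0.43) were also lower. Their 9 array ratios spread widely, from -0.53 to -0.19, -0.83 to -0.24 and -0.86 to -0.21 in that order. Pairs of tumor arrays differed by up to 0.36 in the X window. Other higher stretches lay on chromosome 1 (Ide to Sfr1, 0.56), chromosome 4 (C4h2orf68 to Arpc4, 0.47, and Il17re to Cd4, 0.45) and chromosome 12 (Get4 to Rhbdd2, 0.40, and Hip1 to Slc8b1, 0.42). From Get4 to Rhbdd2, pairs of normal arrays differed by up to 0.20. For the chromosome 17 stretch the 9 array ratios ran from -0.94 to -0.67, while pairs of normal arrays differed by at most 0.10 and pairs of tumor arrays by at most 0.13.

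**Figure D5:**
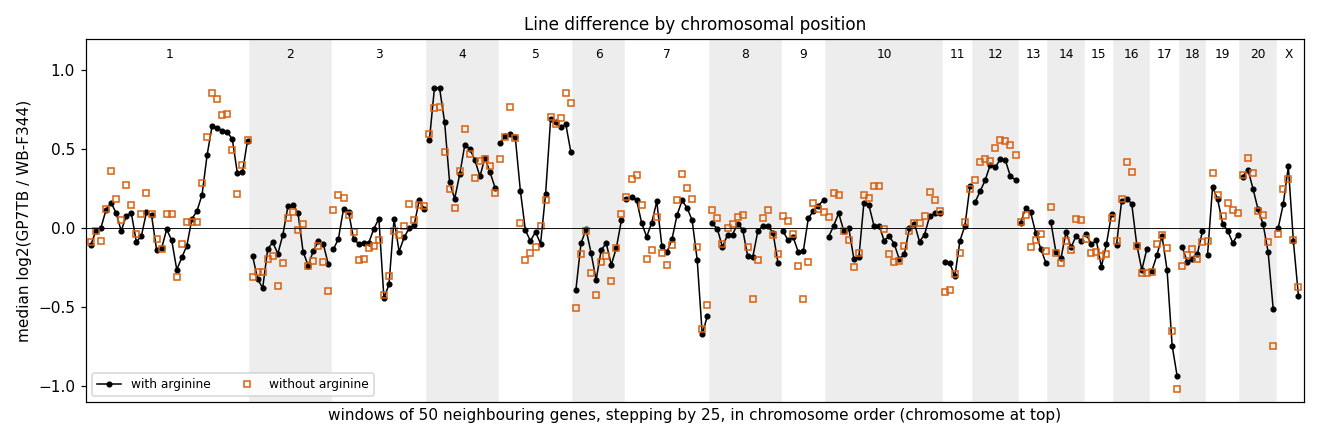
Median log2 difference between tumor and normal cells in windows of 50 neighbouring genes that step by 25, in chromosome order from chromosome 1 to X (chromosome names at the top, alternate chromosomes shaded). Black points joined by lines are the arginine-sufficient arrays and open orange squares the arginine-deficient ones, 3 arrays per line in each; runs of windows lie above 0.4 toward the end of chromosome 1, on chromosome 4 and at both ends of chromosome 5, and below -0.4 at the ends of chromosomes 7 and 17.

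The line difference was measured again in the 6 arginine-deficient cultures, which share no array with the comparison above. They do share the lines, the scan day and chip lots of the tumor arrays, and the scan days and chip lot of normal cultures 1 and 5. Line, scan day and chip lot could not be told apart there either. Of the probe sets tested, limma called 36.1% there, 1535 higher and 1734 lower. Of the 1587 probe sets higher with arginine, 1562 had the same sign without it and 1124 were called again, and of the 1679 lower ones these numbers were 1666 and 1338. No probe set was called in opposite directions. A test of the difference between the 2 line contrasts called 0 probe sets with limma, and 516 of 9051 had an unadjusted p under 0.05. Prss23, one of the 12 largest decreases, had -3.51 with arginine and -5.64 without it (adjusted p = 0.0565 for the difference). Tagln2 gave 4.50 and 4.43, Col1a1 -5.47 and -6.21, and Krt7 -4.33 and -4.23.

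Of 881 genes with several tested probe sets, 5 had probe sets called in opposite directions, Arfrp1, Cd47, Cyb5b, Cybc1 and Prkar1a, so the direction of their RNA is not settled by these arrays. For Cd47 the values were 0.75 ± 0.20 and -1.20 ± 0.24 (limma adjusted p = 0.0148 and 0.00376).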

How the data were processed

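RNA of 12 rat cell cultures was hybridized to 12 Affymetrix RAE230A arrays, and the 6 arginine-sufficient ones were compared here. The deposited values are intensities, signals that the authors made for each probe set with Microarray Suite 5.0 by weighing each perfect match probe against its mismatch partner and then bringing all arrays to the same mean; their scale is linear, and detection calls were not used here. Because this scaling fixes each array's trimmed mean, differences are relative to the other RNAs of the culture. Run records were read for chip lot, scan day and handling alone.

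Signals below 1 (11 to 22 per array) were set to 1 and log2 was taken. The 57 control probe sets were left out and probe sets among the highest 54% of an array in at least 3 of 6 arrays were tested. limma 3.58.1 in R 4.3.3 fitted 1 mean per line with empirical Bayes moderation and an intensity trend (4 residual degrees of freedom), with Benjamini-Hochberg adjustment over 9051 probe sets and a threshold of 0.05. The arginine-deficient arrays and the interaction were fitted on the same probe sets. Symbols were those of the platform annotation, in which 311 probe sets had more than 1 symbol and 2778 had none, and 12742 were checked through gene identifiers, of which 0 changed. Genes were represented by the probe set with the highest mean signal. For a gene under the threshold in all arrays of 1 line, the bound is the bright line's mean against the higher of the threshold and the dim signal on each array.

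Named genes are the 12 largest changes in each direction measured in both lines, the 12 largest bounds in each direction, the genes the study blotted, and members of 55 gene lists with the largest changes that passed, with further members of lists that are described. The members and lists were chosen with earlier results of these data known. Genes that share reads with close relatives cannot be told apart by probe sets ending in _s_at or _x_at. Array number limits the precision, since arrays give no counts. The limma p-values set the difference between line means against the spread among 3 cultures per line, moderated across probe sets. They do not separate line from scan day or chip lot. The fit was tested on simulated data. Alternatives covered the filter, the floor, an offset of 16, quantile normalization, median centring, no trend, all 12 arrays, scan day or chip lot as a random block, probe set types and leaving out each array; counts per list without each array were added after the data were seen. Python 3.11.15 with numpy 2.4.6, pandas 2.3.3, scipy 1.17.1 and matplotlib 3.10.9 made the summaries and figures. Some genes on the array are not reported here.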

Additional observations from a re-analysis of the deposited data

How the results depend on the processing

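The count of 3266 probe sets called with arginine stayed within 1.5 times under all 18 alternatives, from 2317 when all 6 signals had to be above the threshold to 3364 under quantile normalization, and it was 2334 to 3181 with 1 array left out. With scan day as a random block it was 2935, a fit in which each day still holds 1 line. The count at least 2-fold different, 1762, was 868 when all 6 signals had to be above the threshold, which left 6947 probe sets to test. Without arginine, the count of 3269 was 2104 to 3460 with 1 array left out, lowest without tumor culture 10. The line difference by arginine gave 0 calls, with 0 to 1 when 1 array was left out (1 without normal culture 2 and 1 without tumor culture 11). All 48 of the largest named genes kept direction and call under every alternative that could be run for them. They were chosen in these same arrays for large differences without overlap or for signals above the threshold in 1 line only. Their stability was therefore largely set by that choice and is not support. Of 252 named genes that passed, 207 did so in every alternative, 45 lost the call in some, and none reversed. The medians of chromosomes 1, 4, 5, 12 and 17 kept their sign under quantile normalization, with probe sets averaged per gene and with any 1 array left out. No paired analysis was possible because the arrays of the 2 lines share no replicate number. Genes dark in 1 line are limited by the threshold, and a real difference under it was not detectable.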

Other observations

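Counts for groups not described above are given with their shares, to be set beside 18.3% higher and 17.4% lower of all genes. Of 25 endoplasmic reticulum chaperones and degradation genes, 8 were lower and 3 were higher (32% and 12%, with 5 lower without normal culture 1). The disulfide isomerase Pdia3 had a difference of -1.04 ± 0.16 (adjusted p = 0.00101) and the chaperone Hsp90b1 of -0.98 ± 0.19 (adjusted p = 0.00346), whereas Syvn1, a ubiquitin ligase of that compartment, was higher by 1.44 ± 0.19 (adjusted p = 0.000307). Of 20 annexins, S100 proteins and galectins, 5 were higher and 4 were lower (25% and 20%, not far from the shares of all genes). Among them, Lgals3, or galectin-3, was at 2.22 ± 0.38 (adjusted p = 0.00145) and Anxa3 at -2.68 ± 0.23 (adjusted p = 2.16e-05).

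Of 20 WNT and Notch genes, 6 were higher and 5 were lower (30% and 25%), and 6 of the 20 passed the filter on low signals through 1 line only. The ligand Wnt5a (at least 2.38-fold) and the receptor Fzd1 (2.17 ± 0.24, adjusted p = 0.000101) were higher, and the receptor Fzd4 (at least 4.35-fold) and the WNT inhibitor Sfrp1 (-2.61 ± 0.22, adjusted p = 2.35e-05) were lower. Among 21 chromatin genes, 6 were lower and 4 were higher (28.6% and 19%, the latter near the share of all genes). The higher count was 2 without normal culture 1 or tumor culture 11 and 1 without tumor culture 9. The remodelling ATPase Smarca2 was at -1.61 ± 0.32 (adjusted p = 0.00341).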
